A study of Mus musculus with 12 samples.

Results

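The transcription factor p53, encoded by Trp53, and 9 of its known target genes were followed through the differentiation of male mouse embryonic stem (ES) cells with and without Smchd1. The members were the 10 genes Trp53, Mdm2, Cdkn1a, Ccng1, Trp53inp1, Zmat3, Phlda3, Bbc3, Bax and Fas, each matched by name to 1 of the 25965 rows of the expression table. All 10 passed the filter on low values that left 14063 genes for testing, although Fas rested on 1 to 97 reads in a library. Fas met that filter only through libraries of day 5 and day 8. RNA had been sequenced in 12 libraries of C57BL/6 ES cells. The groups were Smchd1 del/del and Smchd1 fl/fl cells at day 1, day 5 and day 8, with 2 libraries each, one from ES line 1 and one from ES line 3. The earliest samples are labelled day 1, where the protocol names a sampling at day 0.

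Smchd1 encodes a non-canonical SMC protein that keeps genes silent on the inactive X chromosome and at imprinted and clustered autosomal loci. Per the labels' protocols, every line came from a single blastocyst grown in 2i and LIF, and its cells were divided between both genotypes. The del/del cells had received the retrovirus MSCV-Cre-puro and had been selected with puromycin from the next day on. The fl/fl cells carried the intact floxed alleles and had received neither virus nor drug. Both were moved to serum and LIF, and were then differentiated towards neuromesodermal progenitors by withdrawal of LIF with Fgf2, followed by a Gsk3 inhibitor and later Gdf11. In every comparison of genotypes, the deletion therefore cannot be told apart from transduction and selection. Nothing in the sources used here says that the libraries came from more than these lines, so p-values measure the spread between 2 lines.

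p53 is held at a low level in unstressed cells by the ubiquitin ligase Mdm2, which is itself a p53 target, so that factor and inhibitor form a feedback loop. DNA damage and other stresses stabilise the p53 protein, which then binds a 20-base element made of a pair of half-sites and raises transcription of genes for cell-cycle arrest and apoptosis. Mouse ES cells are known for abundant Trp53 mRNA and protein, and the mRNA falls as they differentiate. Because p53 is controlled largely after translation, the level of Trp53 mRNA is not a measure of its activity.

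The promoters of 8 members were found in the RefSeq promoter table (GRCm38.p6, 250 bases before to 50 bases after each start). Trp53inp1 and Zmat3 were not among them. Each window was searched for the p53 consensus, which reads the same on both strands, allowing mismatches outside its 4 core bases. A match with at most 1 mismatch was present in 22 of 32851 mouse promoters (0.0670%), and these included Ccng1 and the upstream start of Cdkn1a. Bbc3 and Trp53 each held a match with 3 mismatches, as did 1.38% of promoters with at most 3. The best windows of Phlda3, Bax and Mdm2 had 5 or more mismatches, and none in Fas kept the core bases. A match describes the letters and does not show binding, and the best-known element of Mdm2 lies inside the gene, outside this window. The other start of Cdkn1a had 7 mismatches at best, and those of Bbc3 had 7 and 8. Shown are the promoters of the target genes with at most 3 mismatches, with the 20 best-matching bases in capitals. Trp53, the factor's own gene, is not shown.
Cdkn1a upstream start, chr17:29090729-29091028, plus strand, match at -51 to -32 from the start: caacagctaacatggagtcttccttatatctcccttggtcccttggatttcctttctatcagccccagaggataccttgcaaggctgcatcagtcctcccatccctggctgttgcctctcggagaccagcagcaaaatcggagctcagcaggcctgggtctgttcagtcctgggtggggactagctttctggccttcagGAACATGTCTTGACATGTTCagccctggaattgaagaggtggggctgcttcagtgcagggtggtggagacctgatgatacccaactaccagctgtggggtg
Ccng1, chr11:40755237-40755536, minus strand, match at -195 to -176 from the start: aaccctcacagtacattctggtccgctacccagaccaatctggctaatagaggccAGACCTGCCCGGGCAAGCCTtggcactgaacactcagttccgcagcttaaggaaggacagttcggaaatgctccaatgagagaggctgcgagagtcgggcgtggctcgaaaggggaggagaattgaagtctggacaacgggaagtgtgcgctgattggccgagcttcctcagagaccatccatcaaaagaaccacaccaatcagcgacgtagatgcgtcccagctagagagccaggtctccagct
Bbc3 upstream start, chr7:16309333-16309632, plus strand, match at -97 to -78 from the start: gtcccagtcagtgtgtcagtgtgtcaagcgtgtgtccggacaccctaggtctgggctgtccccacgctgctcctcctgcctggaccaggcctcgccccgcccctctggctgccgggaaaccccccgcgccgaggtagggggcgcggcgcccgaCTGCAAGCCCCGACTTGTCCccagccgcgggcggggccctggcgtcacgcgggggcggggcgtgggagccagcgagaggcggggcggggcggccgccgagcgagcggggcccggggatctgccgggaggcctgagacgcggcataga

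The libraries held 1.51 to 8.67 M reads in genes, out of denominators of 14.9 to 34.0 M. The fl/fl day 8 library of line 3 stood apart, with 1.51 M reads in genes (10.1% of its denominator) against 5.97 M in its line 1 partner, and its column is named as a merged file. The deposited scale divides by reads outside genes as well, and on it the median gene differed by 0.90 log2 units between genotypes at day 8. Levels are therefore given as relative log2 RPM, the log2 of RPM (reads scaled to a common library total) after each library was shifted by the median of its log ratios. Smchd1 itself fell in del/del cells, to 197 and 271 reads at day 1, 102 and 104 at day 5 and 161 and 140 at day 8, against 1212 and 1495, 366 and 919, and 728 and 111 reads in fl/fl cells (line 1, then line 3, as in all pairs of values that follow). Its difference was -2.84 ± 0.24 (SE) at day 1, -2.07 at day 5 and -2.41 at day 8 (limma, adjusted p = 0.00211, 0.0480 and 0.00252). Of the markers for neuromesodermal progenitors, 6 of 6 tested rose at day 5 in both genotypes, and their summed level was 74.9 to 112 relative RPM in del/del and 65.9 to 89.7 in fl/fl cells. At day 8 the sum was 19.7 to 24.4 in del/del cells and 29.4 to 30.6 in fl/fl cells, where Wnt3a was at 0 in both libraries.

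Levels between genes were compared per kilobase of exon. At day 1 Bax, a pore-forming effector of the Bcl2 family, was the most abundant member, with 30.6 ± 1.7 relative RPM per kb in del/del and 32.8 ± 1.4 in fl/fl cells (SD, n = 2 each). Ccng1, which encodes cyclin G1, followed with 18.4 ± 0.9 in del/del and 20.8 ± 2.0 in fl/fl cells. Phlda3, which encodes a repressor of Akt, Trp53, Trp53inp1, Mdm2 and Bbc3 came after them, and in both genotypes Trp53inp1, Mdm2 and Bbc3 overlapped with their neighbours in this order. Cdkn1a had rank 8 of 10 at day 1, at 6.35 ± 0.11 relative RPM per kb in del/del and 6.20 ± 0.39 in fl/fl cells. Zmat3 and Fas were lowest in every group. Zmat3 encodes a zinc finger RNA-binding protein, and Fas the death receptor CD95. At day 8 Cdkn1a had rank 4 in both genotypes, at 19.9 ± 1.2 in del/del and 38.1 ± 17.9 in fl/fl cells, and Trp53 had rank 8, at 4.93 ± 0.04 in del/del and 5.60 ± 0.49 in fl/fl cells. The 4 highest members of the fl/fl day 8 group (Ccng1, Bax, Phlda3 and Cdkn1a) overlapped with their neighbours, and in del/del cells the same 4 genes kept apart from each other.

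**Figure D1:**
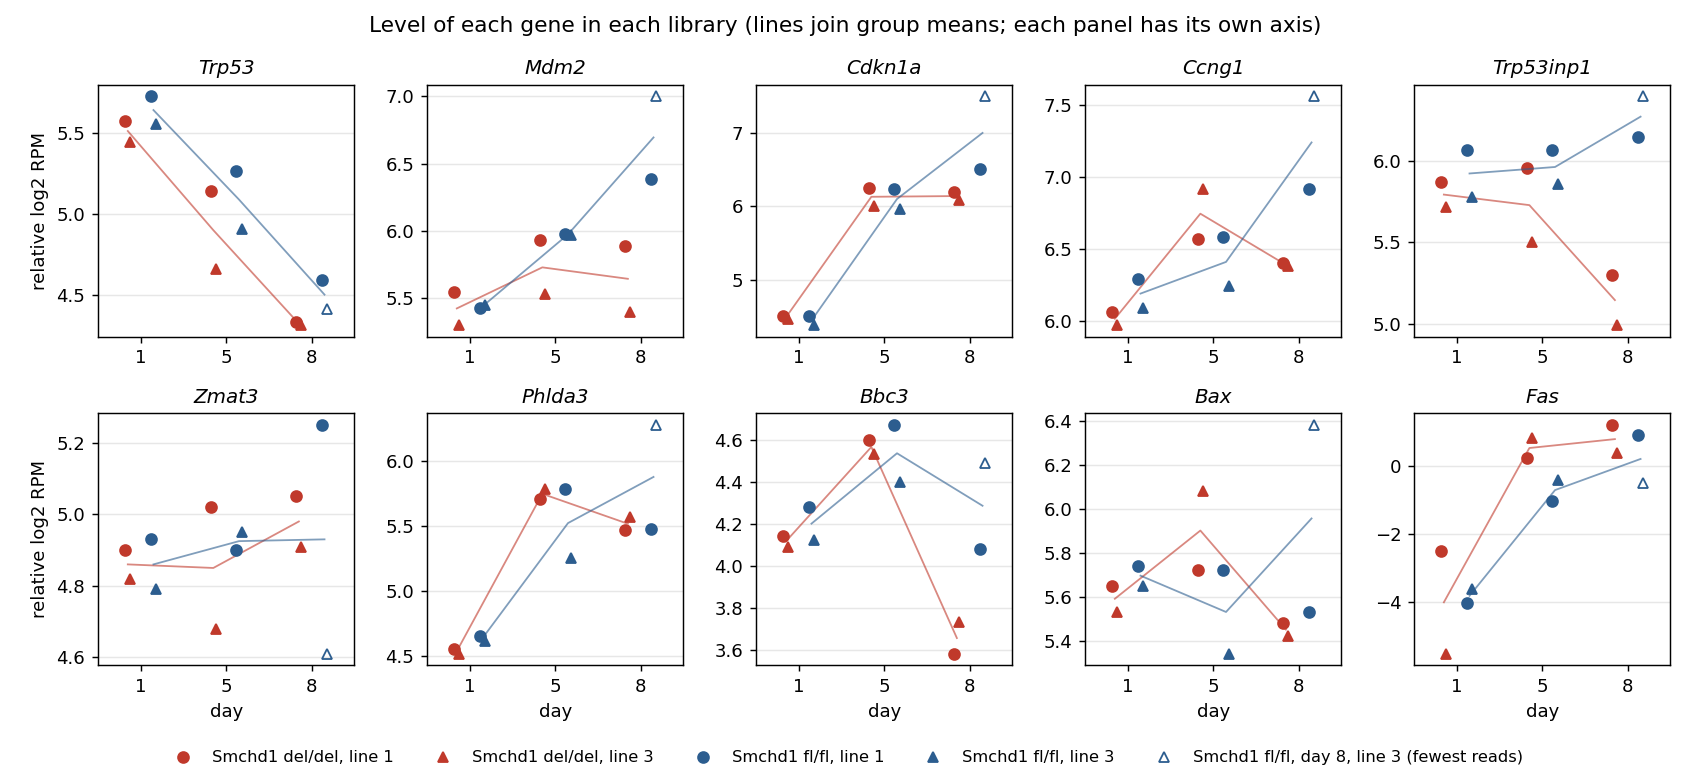
Relative log2 RPM of the 10 genes in each of the 12 libraries by day, del/del in red to the left of fl/fl in blue, with circles for line 1 and triangles for line 3. Lines join the means of 2 libraries. The open triangle is the line 3 fl/fl day 8 library, which had the highest level of the 12 libraries for 6 genes, among them Mdm2 at 7.00 and Cdkn1a at 7.49.

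Trp53 (chr11:69580359-69591873 in mm10, plus strand) fell between day 1 and day 5 in both genotypes, and its later step did not pass. In del/del cells its relative log2 RPM was 5.58 and 5.45 at day 1, 5.14 and 4.66 at day 5, and 4.33 and 4.31 at day 8. In fl/fl cells it was 5.73 and 5.56 at day 1, 5.27 and 4.91 at day 5, and 4.59 and 4.41 at day 8. On this scale every library of a later day lay below every library of an earlier day in both genotypes. Trp53 fell by 0.61 ± 0.18 from day 1 to day 5 in del/del cells (SE, limma, adjusted p = 0.0174) and by 0.56 ± 0.18 in fl/fl cells (adjusted p = 0.0265). The fall at day 5 was not called without either day 1 library or the day 5 library of line 3 of the same genotype, with adjusted p of 0.0546 to 0.116 in del/del and 0.0659 to 0.199 in fl/fl cells. On the deposited scale it was -1.51 (adjusted p = 0.00574) in del/del and -0.92 (adjusted p = 0.0980) in fl/fl cells. The step to day 8 measured -0.58 ± 0.18 in del/del cells (adjusted p = 0.0552) and -0.59 ± 0.18 in fl/fl cells (adjusted p = 0.0694). On the deposited scale the later step turned to 0.11 in del/del cells (adjusted p = 0.827) and was -1.14 in fl/fl cells (adjusted p = 0.136). With the ES line as a block, this later step passed in both (adjusted p = 0.0281 in del/del and 0.0424 in fl/fl cells). The pseudogene Trp53-ps, which could share reads with Trp53, had at most 9 reads in a library.

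**Figure D2:**
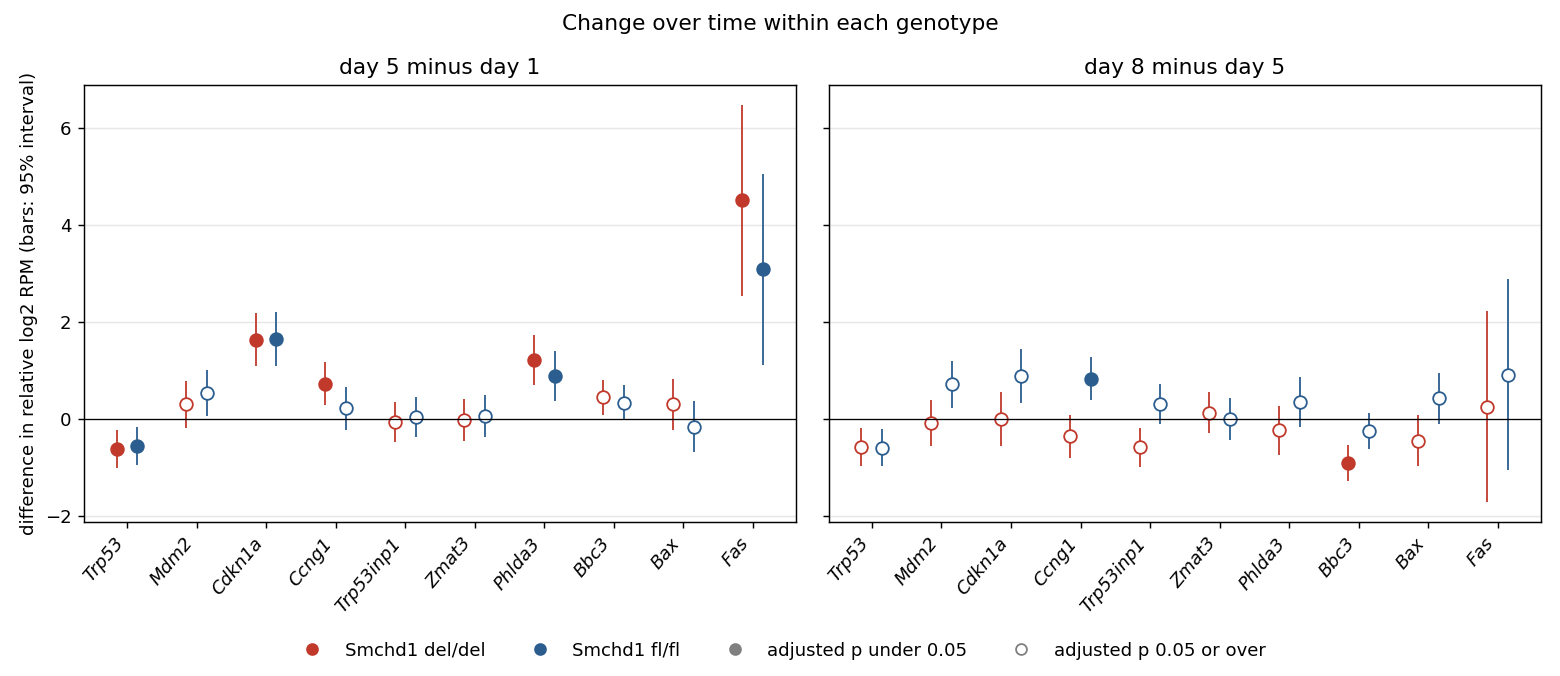
Difference in relative log2 RPM (vertical axis) of each gene between day 5 and day 1 (left panel) and between day 8 and day 5 (right panel), in del/del (red) and fl/fl cells (blue), with 95% intervals from limma. Filled points have an adjusted p under 0.05: between day 1 and day 5 these are Trp53, Cdkn1a, Phlda3 and Fas in both genotypes and Ccng1 in del/del cells, whose sign turned on the deposited scale.

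Of the 9 targets, Cdkn1a, Phlda3 and Fas rose between day 1 and day 5 in both genotypes and Ccng1 passed in del/del cells, while the other 5 passed in neither. In del/del cells 4 of 10 members rose and 1 fell, where 20.9% and 18.7% of all tested genes did. In fl/fl cells 3 rose and 1 fell, against 22.8% and 18.3% of all genes. The members' shares rest on 1 to 4 members each, with Fas among those that rose. Their difference from the shares of all genes was not tested. The members' median changes were 0.38 in del/del and 0.28 in fl/fl cells, against 0.01 and -0.05 over all genes. On the deposited scale both medians turned, to -0.52 in del/del and -0.09 in fl/fl cells, with 1 member higher and 2 lower in del/del and 2 higher and 0 lower in fl/fl cells. That scale also moved the split over all genes, to 826 higher and 4928 lower in del/del cells (2943 and 2625 on the relative scale) and to 1221 and 1436 in fl/fl cells (3200 and 2574).

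Cdkn1a (chr17:29090979-29100722, plus strand) encodes p21, the inhibitor of cyclin-dependent kinases through which p53 arrests the cell cycle. Its relative log2 RPM in del/del cells was 4.51 and 4.48 at day 1, 6.25 and 6.01 at day 5, and 6.20 and 6.08 at day 8. The fl/fl libraries were at 4.52 and 4.39, then 6.23 and 5.97, then 6.50 and 7.49. The libraries of day 5 lay far above those of day 1, with the genotypes intermingled. The change at day 5 was 3.11-fold in del/del cells (1.64 ± 0.25 log2, SE, adjusted p = 0.000521) and 3.13-fold in fl/fl cells (1.64 ± 0.25, adjusted p = 0.000519). The fl/fl call held in all 20 alternative settings and the del/del call in 19, the exception being the deposited scale (0.74, adjusted p = 0.0556). AC167363.2, annotated on the opposite strand, overlaps 7.68% of the Cdkn1a exons, and the sources used here do not say whether reads were counted by strand.

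Phlda3 (chr1:135766119-135769136, plus strand) was at 4.56 and 4.52 in del/del cells at day 1, 5.71 and 5.79 at day 5, and 5.47 and 5.57 at day 8. The fl/fl libraries were at 4.66 and 4.62, then 5.79 and 5.26, then 5.48 and 6.28. It rose at day 5 by 1.21 ± 0.23 in del/del (SE, adjusted p = 0.00205) and by 0.89 ± 0.23 in fl/fl cells (adjusted p = 0.0110). On the deposited scale, where every gene of this contrast lies 0.90 lower in del/del and 0.37 lower in fl/fl cells, these values were 0.32 (adjusted p = 0.403) and 0.52 (adjusted p = 0.236). Without either fl/fl day 1 library or the line 1 fl/fl day 5 library, the fl/fl call was also lost.

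Ccng1 (chr11:40748552-40755311, minus strand) was at 6.06 and 5.97 in del/del cells at day 1, 6.57 and 6.92 at day 5, and 6.40 and 6.38 at day 8. The fl/fl libraries were at 6.29 and 6.09, then 6.58 and 6.24, then 6.92 and 7.56. Day 5 libraries lay above day 1 libraries in del/del cells and overlapped with them in fl/fl cells. The day 5 change was 0.73 ± 0.20 in del/del cells (SE, adjusted p = 0.0149), with the opposite sign on the deposited scale (-0.17, adjusted p = 0.611), and 0.22 ± 0.20 in fl/fl cells (adjusted p = 0.408), which also turned on the deposited scale (-0.14). The del/del call was also lost without either del/del day 1 library or the line 3 del/del day 5 library. The difference between these changes was 0.51 ± 0.29 (SE, interaction, adjusted p = 0.963, and -0.02 on the deposited scale), so the genotypes were not shown to differ in it.

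Fas (chr19:34290659-34327770, plus strand), whose product is activated by Fas ligand to trigger apoptosis, had almost no reads at day 1. There it lay at -2.05 or lower on the deposited log2 scale. It met the filter only through later libraries, so its rise from day 1 is not independent of that filter. Its reads in del/del cells were 7 and 1 at day 1, 29 and 35 at day 5, and 97 and 51 at day 8. The fl/fl libraries had 2 and 3, then 11 and 30, then 56 and 5. Per rescaled depth, day 5 stood at 15.1 times day 1 in del/del cells (95% exact interval 7.23 to 36.5, from 64 against 8 reads) and at 9.04 times in fl/fl cells (3.58 to 29.3, from 41 against 5 reads). These intervals cover counting error only. The fitted change passed in both genotypes (limma, adjusted p = 0.00248 in del/del and 0.0178 in fl/fl cells). In fl/fl cells the call was lost when any of the 4 libraries compared was left out, with an adjusted p of up to 0.101. From day 5 to day 8 the read ratio was 1.26 in del/del cells (0.933 to 1.72) and 2.49 in fl/fl cells (1.65 to 3.79), where the fitted change over 2 libraries did not pass (adjusted p = 0.883 and 0.559).

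The other 5 members did not pass between day 1 and day 5 in either genotype. Mdm2 (chr10:117688888-117710758, minus strand) was at 5.55 and 5.30 in del/del cells at day 1 and 5.93 and 5.53 at day 5, and at 5.43 and 5.45, then 5.98 and 5.97, in fl/fl cells. Its day 5 libraries lay above its day 1 libraries in fl/fl cells and overlapped with them in del/del cells. The difference was 0.30 ± 0.22 in del/del cells (SE, adjusted p = 0.295) and 0.54 ± 0.22 in fl/fl cells (adjusted p = 0.0725). Bbc3 (chr7:16309616-16318205, plus strand) encodes Puma, a BH3-only protein that activates Bax. It was at 4.14 and 4.09 in del/del cells at day 1 and 4.60 and 4.53 at day 5, and at 4.28 and 4.12, then 4.67 and 4.40, in fl/fl cells. Day 5 lay above day 1 without overlap in both genotypes, and the differences were 0.45 ± 0.17 in del/del cells (SE, adjusted p = 0.0529) and 0.34 ± 0.17 in fl/fl cells (adjusted p = 0.129). Bax (chr7:45461695-45466898, minus strand), of whose exons 12.2% overlap Gm45808 on the same strand, had 0.31 in del/del and -0.16 in fl/fl cells. Trp53inp1 (chr4:11156431-11174379, plus strand), which encodes a nuclear cofactor of p53 with a role in autophagy, had -0.06 in del/del and 0.04 in fl/fl cells, and on the deposited scale its del/del value passed (-0.96, adjusted p = 0.0294). The deposited scale turned the signs of Mdm2 (-0.59), Bbc3 (-0.45) and Bax (-0.59) in del/del cells and of Bbc3 (-0.03), Trp53inp1 (-0.32) and Zmat3 (-0.30) in fl/fl cells. Zmat3 (chr3:32334796-32365678, minus strand) had -0.02 in del/del and 0.07 in fl/fl cells, and its relative log2 RPM stayed between 4.61 and 5.25 in all 12 libraries.

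Between day 5 and day 8, which shares its day 5 libraries with the contrast before it, few members passed. In del/del cells 0 of 10 rose and 1 fell, against 7.31% and 4.57% of all genes. In fl/fl cells 1 rose and 0 fell, against 3.02% and 3.58%. On the deposited scale 0 members passed in either, and the split over all genes was 1096 higher and 51 lower in del/del cells (1028 and 642 on the relative scale) and 24 and 152 in fl/fl cells (425 and 504). Bbc3 fell in del/del cells, by 0.90 ± 0.17 (SE, adjusted p = 0.00715), where its libraries were at 3.58 and 3.73 relative log2 RPM at day 8 and at 4.60 and 4.53 at day 5. That call was lost without the line 1 del/del day 8 library and on the deposited scale (-0.21, adjusted p = 0.684). Ccng1 rose in fl/fl cells by 0.83 ± 0.20 (SE, adjusted p = 0.0371), a call lost in 12 of 20 alternatives, among them the block of ES lines (adjusted p = 0.0532) and the fit without the line 3 fl/fl day 8 library (0.51, adjusted p = 0.150). Without the line 1 fl/fl day 8 library, the members' median in fl/fl cells was 0.60, against 0.39 with all libraries. Trp53inp1 in del/del cells measured -0.58 ± 0.18 (adjusted p = 0.0636), 0.0469 with that block, and turned to 0.11 on the deposited scale. Voom, the block and the fit without the shallow library each called 3 members lower in del/del cells.

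The other genes of the pathway were then set beside the members for the step between day 1 and day 5, at which 20.9% of all genes rose and 18.7% fell in del/del cells and 22.8% rose and 18.3% fell in fl/fl cells. Over the 116 genes tested, 46.6% passed in del/del and 49.1% in fl/fl cells, where 39.6% and 41.1% of all genes did. Markers of other cell types moved at this step as well. Of 9 fibroblast markers 5 rose in del/del and 3 in fl/fl cells, of 6 trophoblast markers 4 rose in both, of 5 for extraembryonic endoderm 2 rose in del/del and 3 in fl/fl cells, and 0 markers of these 3 lists fell. The summed trophoblast level was 187 to 238 relative RPM in del/del cells at day 5, against 55.0 to 70.3 at day 1, and 191 to 261 in fl/fl cells at day 5, against 70.6 to 73.5 at day 1. Neuronal and endothelial markers moved both ways, with equal numbers for each genotype. Among 3 tested neuronal markers, 1 was higher while 2 were lower at day 5. The 4 endothelial markers split evenly, 2 higher, 2 lower. The neuronal median was -2.48 (del/del) and -1.89 (fl/fl), the endothelial one -0.66 (del/del) and 0.70 (fl/fl). The part of all these cell types in the changes was not tested. Of the other p53 targets for arrest, stress and repair, 10 of 33 tested rose and 5 fell at day 5 in del/del cells, and 11 rose and 3 fell in fl/fl cells. Their medians were 0.27 in del/del and 0.35 in fl/fl cells, which turned to -0.63 and -0.02 on the deposited scale. Plk2, a polo-like kinase, had the smallest p in both, and rose by 1.46 ± 0.20 in del/del (SE, adjusted p = 0.000246) and by 1.72 ± 0.20 in fl/fl cells (adjusted p = 8.62e-05). Btg2, an antiproliferative cofactor of mRNA decay, rose by 1.02 in del/del and 1.12 in fl/fl cells, and Abhd4, a lipid hydrolase, by 1.16 and 1.35. Zfp365, Gtse1 and Rrm2b, a subunit of ribonucleotide reductase, fell in both, Rrm2b by 0.92 in del/del and 0.87 in fl/fl cells.

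Among other apoptotic targets 5 of 17 rose and 2 fell in del/del cells, and 4 rose and 1 fell in fl/fl cells. The medians of this list were 0.18 in del/del and 0.11 in fl/fl cells, and -0.71 and -0.26 on the deposited scale. Perp, a membrane protein of desmosomes, rose by 2.04 ± 0.23 in del/del and by 2.09 ± 0.23 in fl/fl cells (SE, adjusted p = 8.48e-05 and 7.02e-05). Caspase 6 (Casp6) rose by 1.41 in del/del and 1.18 in fl/fl cells, and Bcl2l11, which encodes the BH3-only protein Bim, fell by 0.87 in del/del and 0.66 in fl/fl cells.

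Of 25 regulators and partners of p53, 2 rose and 7 fell in del/del cells, and 3 rose and 9 fell in fl/fl cells (medians -0.20 and -0.34, and -1.10 and -0.70 on the deposited scale). The damage kinase Atm fell by 1.43 ± 0.22 in del/del and by 1.35 ± 0.22 in fl/fl cells (SE, adjusted p = 0.000585 and 0.000862). Trp73, a paralogue of Trp53, fell, with -4.33 in del/del and -4.15 in fl/fl cells, as did Trp53bp1, with -1.07 and -1.15. Ppp1r13l, which encodes the p53 inhibitor iASPP, rose by 1.97 ± 0.26 in del/del and by 2.66 ± 0.26 in fl/fl cells. Cdkn2a, whose Arf product restrains Mdm2, rose by 1.84 in del/del and 2.23 in fl/fl cells.

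The mitotic list held 20 genes of mitosis, S phase entry and replication that p53 is known to repress through p21 and the DREAM complex. Of these, 0 rose and 14 fell in del/del cells, and 0 rose and 18 fell in fl/fl cells (medians -0.84 and -1.06, and -1.73 and -1.43 on the deposited scale). Aurka, a spindle kinase, fell by 1.28 ± 0.20 in del/del and by 1.20 ± 0.20 in fl/fl cells (SE, adjusted p = 0.000521 and 0.000770). Mcm2, a subunit of the replicative helicase, fell by 0.57 in del/del and 0.73 in fl/fl cells. Of the other inhibitors of cyclin-dependent kinases, 3 of 7 rose in both genotypes. Cdkn2b rose by 2.09 in del/del and 2.55 in fl/fl cells, and Cdkn1c by 1.62 and 1.82, while Cdkn1b fell by 0.91 in del/del cells. In the Bcl2 family 4 of 18 rose and 4 fell in del/del cells, and 5 rose and 2 fell in fl/fl cells, shares near those of all genes (20.9% and 18.7%, and 22.8% and 18.3%). The survival gene Bcl2l1 rose by 0.79 in del/del and 0.92 in fl/fl cells, and Mcl1 fell by 0.50 and 0.57.

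From day 5 to day 8, 11 of the 116 pathway genes tested passed in del/del and 11 in fl/fl cells (9.48% each), against 11.9% and 6.61% of all genes. The arrest list had 3 of 33 genes higher and 2 lower in del/del cells, and 0 higher and 1 lower in fl/fl cells. Gdf15, a stress-induced secreted factor, rose by 2.18 ± 0.45 in del/del cells (SE, adjusted p = 0.0126). Notch1 fell in both genotypes, by 1.20 ± 0.23 in del/del and by 1.44 ± 0.23 in fl/fl cells (adjusted p = 0.00799 and 0.00753). Of the mitotic list, 2 of 20 fell in del/del and 7 in fl/fl cells, and without the line 3 fl/fl day 8 library the numbers were 3 and 3. Hrk, a BH3-only gene, fell by 2.51 ± 0.42 in del/del cells (adjusted p = 0.00432).

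Between genotypes no member passed at day 1 or day 5. By limma 0 of 10 were called on each day and 0 had an unadjusted p under 0.05, and voom also called 0. Over all genes 1 was called at day 1 and 1 at day 5 (0.00711% each), and that gene was Smchd1 on both days. At day 1, del/del and fl/fl libraries did not overlap for 2 members, both lower in del/del cells, where 19.6% of all genes were lower and 17.6% higher in this way. Those were Ccng1 and Phlda3, with differences of -0.18 ± 0.20 and -0.10 ± 0.23 (SE), that of Phlda3 turning to 0.06 on the deposited scale. Apart from Fas, the 95% intervals of the day 1 differences lay between -0.63 and 0.59 log2 units. At day 5, 1 member was lower without overlap and 1 higher, against 19.7% and 14.5% of all genes. Mdm2 was the lower one (-0.25 ± 0.22) and Fas the higher one, with 64 reads in del/del and 41 in fl/fl cells and a ratio per rescaled depth of 2.17 (95% exact interval 1.44 to 3.29, counting error only). The fitted Fas difference at day 5, which includes the spread between lines, was 1.23 ± 0.89 (adjusted p = 0.649).

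At day 8, 0 members were higher and 5 were lower in del/del cells, against 8.17% and 6.84% of all genes. The 5 were Mdm2, Cdkn1a, Ccng1, Trp53inp1 and Bbc3, so they included both the inhibitor of p53 and targets for arrest and apoptosis. The median over the members was -0.57 (0.03 over all genes). The libraries did not overlap for 7 members, all lower in del/del cells, namely these 5, Trp53 and Bax, where 30.2% of all genes were lower and 32.7% higher in this way. How many passed depended on single day 8 libraries. Without the line 3 fl/fl day 8 library, only Trp53inp1 passed, 0.825% of all genes were lower and the median of the members was -0.31. Without the line 1 fl/fl library the members' median was -0.88, and without the line 3 del/del library it was -0.59. Voom with all libraries called 4 lower. With the deposited scale, where every gene lay 0.87 higher in this contrast, none passed (0 of 10), the members' median turned to 0.30, and the split over all genes was 3227 higher and 68 lower (1149 and 962 on the relative scale).

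Trp53inp1 had the largest difference of the 10 genes. Its relative log2 RPM at day 8 was 5.30 and 4.99 in del/del cells, against 6.15 and 6.40 in fl/fl cells, and its reads were 1681 and 1262 against 2145 and 597. Both del/del libraries lay well below both fl/fl libraries. It was 2.19-fold lower in del/del cells (-1.13 ± 0.18, SE, adjusted p = 0.00852). Within line 1 the difference was -0.85 and within line 3 it was -1.41. The call was kept in 17 of 20 alternatives and without the shallow fl/fl library (-1.01, adjusted p = 0.0480). It was lost without the line 3 del/del library (-0.97, adjusted p = 0.0968), when only day 8 libraries entered the fit, and on the deposited scale (-0.26, adjusted p = 0.522).

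Mdm2 had a relative log2 RPM of 5.89 and 5.40 in del/del cells, against 6.39 and 7.00 in fl/fl cells. The del/del libraries were the lower ones in each line, by 0.50 in line 1 and by 1.59 in line 3. The difference was 2.06-fold (-1.05 ± 0.22, SE, adjusted p = 0.0173), and without the shallow library it was -0.74 (adjusted p = 0.0952). Without the line 3 del/del library it was -0.80 (adjusted p = 0.163). On the deposited scale it was -0.18 (adjusted p = 0.663), and the call was kept in 16 of 20 alternatives.

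Cdkn1a was 1.81-fold lower in del/del cells (-0.86 ± 0.25, SE, adjusted p = 0.0449), from libraries at 6.20 and 6.08 in del/del cells against 6.50 and 7.49 in fl/fl cells. The line 3 control stood far above the other 3 libraries. The call was kept in 7 of 20 alternatives. It was lost with the block of ES lines (adjusted p = 0.0628), without the shallow library (-0.36, adjusted p = 0.200) and without the line 3 del/del library (-0.79, adjusted p = 0.245), and the sign turned on the deposited scale (0.01, adjusted p = 0.976). In reads, Cdkn1a had 3131 and 2674 in del/del cells, against 2717 and 1272 in fl/fl cells.

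Ccng1 was 1.80-fold lower (-0.85 ± 0.20, SE, adjusted p = 0.0247), with 6.40 and 6.38 in del/del cells against 6.92 and 7.56 in fl/fl cells. Without the shallow library the difference was -0.53 (adjusted p = 0.125), and on the deposited scale it was 0.02 (adjusted p = 0.964). Bbc3 was 1.55-fold lower (-0.63 ± 0.17, SE, adjusted p = 0.0325), with 3.58 and 3.73 in del/del cells against 4.08 and 4.49 in fl/fl cells. Both genes lay lower in del/del cells within each line, Ccng1 by 0.52 and 1.18 and Bbc3 by 0.50 and 0.76. Without the line 3 del/del library Ccng1 was at -0.84 (adjusted p = 0.164) and Bbc3 at -0.71 (adjusted p = 0.154). The Ccng1 call was kept in 15 of 20 alternatives and the Bbc3 call in 10. Both were lost without the line 1 del/del library and with only day 8 libraries in the fit, and Bbc3 also by voom (-0.54, adjusted p = 0.0539) and without any 1 of the 4 day 1 libraries. For Bbc3 the difference was -0.42 (adjusted p = 0.164) without the shallow library and 0.24 (adjusted p = 0.610) on the deposited scale.

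The remaining members did not pass at day 8. Trp53 differed by -0.18 ± 0.18 (SE, adjusted p = 0.481), with 4.33 and 4.31 in del/del cells against 4.59 and 4.41 in fl/fl cells, and turned to 0.69 on the deposited scale. Bax differed by -0.51 ± 0.24 (adjusted p = 0.156) and Phlda3 by -0.36 ± 0.23 (adjusted p = 0.284), and without the shallow library these were -0.08 and 0.04, and 0.36 and 0.51 on the deposited scale. Zmat3 had 5.05 and 4.91 in del/del cells, against 5.25 and 4.61 in fl/fl cells, so that the shallow library was its lowest and the other control its highest. Fas had 148 reads in del/del and 61 in fl/fl cells, a pooled ratio of 1.10 per rescaled depth (95% exact interval 0.809 to 1.50, counting error only). Within line 1 its relative log2 RPM was 0.29 higher in del/del cells. Within line 3 it was 0.86 higher, with 5 reads in the fl/fl library. The fitted Fas difference, which includes the spread between lines, was 0.58 ± 0.89 (SE, limma, adjusted p = 0.667).

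**Figure D3:**
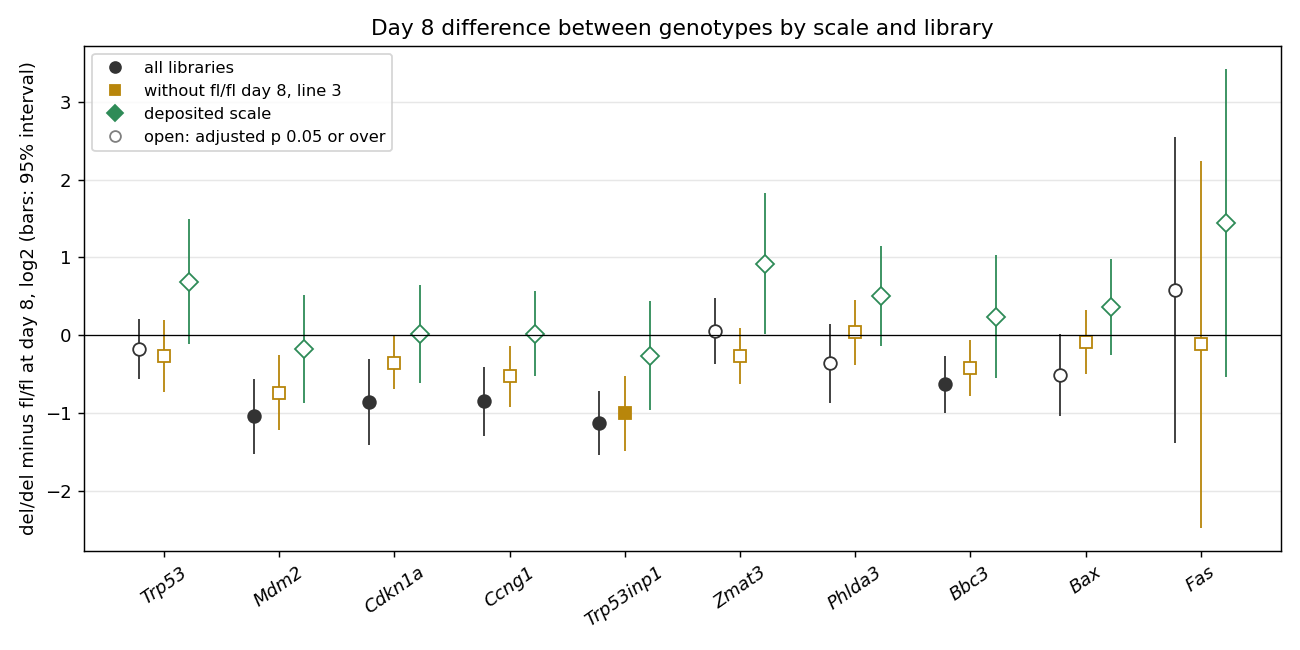
Difference between del/del and fl/fl cells at day 8 (log2, vertical axis, with 95% intervals from limma) for each gene with all libraries (circles), without the line 3 fl/fl day 8 library (squares) and on the deposited scale (diamonds). Filled symbols have an adjusted p under 0.05: 5 genes with all libraries, Trp53inp1 at -1.01 without that library, and none on the deposited scale.

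Read density was set beside this result. Of the members, 5 (Mdm2, Cdkn1a, Ccng1, Phlda3 and Bax) belonged to the genes with the most reads per exon base, the highest 1 of 10 equal classes, at 29.7 or more reads per 100 bases. Of these, Phlda3 and Bax were not called at day 8. The median day 8 difference of that class was -0.18 over all libraries and -0.07 against the line 1 control alone. Trp53inp1 and Bbc3, which were called, lay with Trp53 in the next class, where these medians were -0.02 and -0.04. Markers of other cell types also moved with the day 8 groups. The summed level of 9 fibroblast markers was 461 to 579 relative RPM in del/del cells, against 57.8 to 219 in fl/fl cells, with 2 of 9 called higher. Trophoblast markers summed to 80.7 to 108 in del/del cells, with Elf5 at 0 in both libraries, against 182 to 498 in fl/fl cells, and 4 of 6 tested were called lower. Neuronal markers summed to 42.8 to 97.4 in del/del and 148 to 311 in fl/fl cells (1 of 3 higher and 1 lower), and endothelial ones to 2.83 to 8.34 in del/del and 19.0 to 31.6 in fl/fl cells (1 of 4 lower). Without the shallow library 0 markers of these 4 lists were called, and the median of the fibroblast list was 1.43, against 2.07 with it. Of the other markers, with all libraries, 2 of 7 for pluripotency were lower, 2 of 4 for presomitic mesoderm were higher and 0 of 5 for extraembryonic endoderm were called. The pluripotency marker Sox2 was at -1.42 with all libraries and at -1.23 without the shallow one. In bulk RNA, fewer cells of a type and less RNA per cell cannot be told apart. The part of depth and of these cell types in the day 8 differences was not tested.

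Of the other pathway genes, the targets for arrest, stress and repair had 0 of 33 higher and 6 lower in del/del cells at day 8, with a median of -0.34 that turned to 0.53 on the deposited scale. The smallest p belonged to Abhd4 (-0.86 ± 0.21, SE, adjusted p = 0.0247), Btg2 (-0.67 ± 0.16, adjusted p = 0.0258), the stress sensor Sesn2 (-0.60 ± 0.15, adjusted p = 0.0263) and the kinase Plk3 (-1.05 ± 0.28, adjusted p = 0.0338). Without the shallow library these 4 had adjusted p of 0.111 to 0.181, and the 1 gene called in the list was Gls2, a glutaminase (-1.48, adjusted p = 0.0480). Of the apoptotic targets 1 of 17 was higher and 3 were lower (median -0.10, and 0.77 on the deposited scale). Perp differed by -1.19 ± 0.23 (adjusted p = 0.0152), Pmaip1, which encodes the BH3-only protein Noxa, by -0.77 ± 0.20 (adjusted p = 0.0290), and the TRAIL receptor Tnfrsf10b by -0.64 ± 0.17 (adjusted p = 0.0360). None of the 17 was called without the shallow library, where Perp was at -0.84 (adjusted p = 0.0728).

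**Figure D4:**
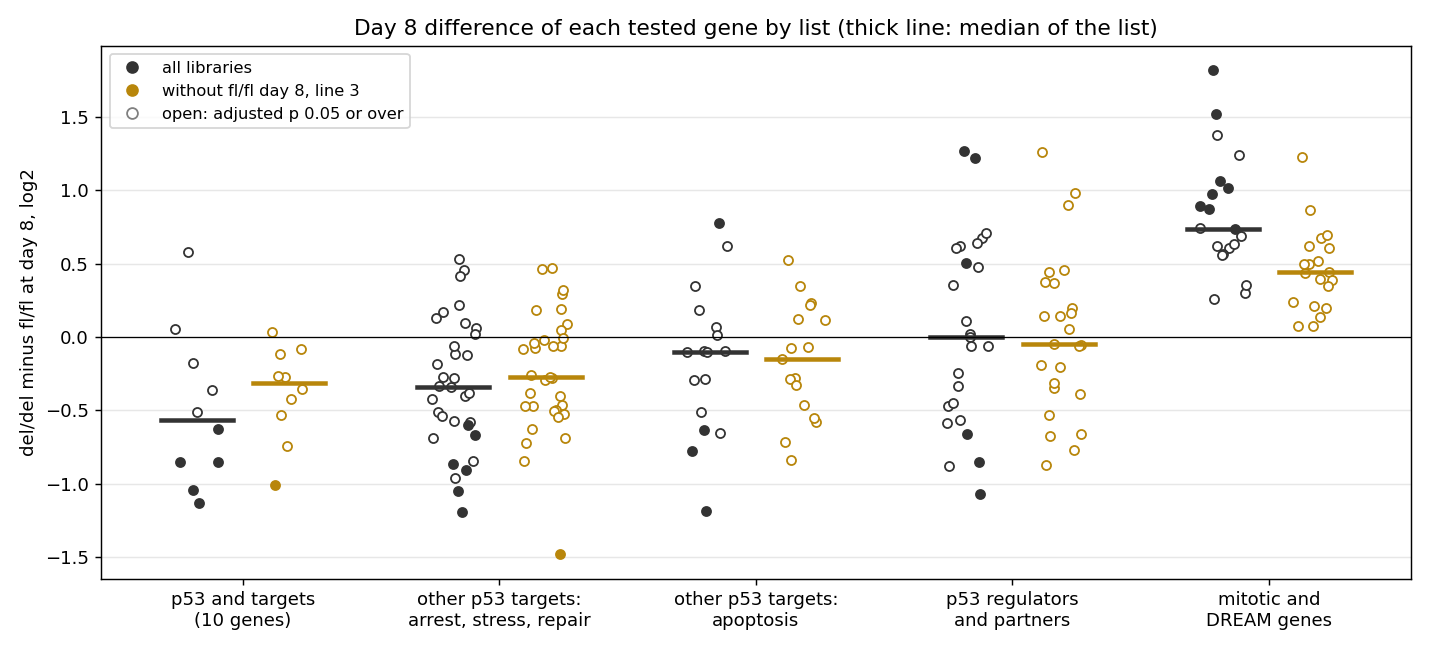
Difference between del/del and fl/fl cells at day 8 (log2, vertical axis) of every tested gene of 5 lists (horizontal axis), with all libraries in black and without the line 3 fl/fl day 8 library in ochre. Thick lines are medians and filled points have an adjusted p under 0.05. The medians of the 10 genes were -0.57 and -0.31 (0.30 on the deposited scale with all libraries), and those of the mitotic list 0.74 and 0.44.

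The mitotic list lay on the other side, with 8 of 20 higher and 0 lower in del/del cells and a median of 0.74 (1.61 on the deposited scale). For this and the lists below, the shares over all genes were 8.17% higher and 6.84% lower. E2f1, a transcription factor of S phase entry, differed by 0.88 ± 0.20 (SE, adjusted p = 0.0206). Cenpa, the centromeric histone, differed by 1.06 ± 0.24 (adjusted p = 0.0211), the cyclin gene Ccnb2 by 0.89 ± 0.20 (adjusted p = 0.0211) and Top2a by 1.01 ± 0.26 (adjusted p = 0.0301). Without the shallow library 0 of the 20 were called and the median was 0.44. Regulators and partners had 3 of 25 higher and 3 lower (median 0.00, and 0.87 on the deposited scale). Usp7, the deubiquitinase of Mdm2 and p53, was lower by a like amount in both fits, at -0.66 ± 0.13 (adjusted p = 0.0152) with all libraries and -0.66 (adjusted p = 0.0532) without the shallow one. The checkpoint kinase Chek1 was at 1.27 ± 0.35 (adjusted p = 0.0373). In the Bcl2 family 0 of 18 were higher and 3 lower, among which Hrk kept its call without the shallow library (-2.48 ± 0.42 with all libraries, adjusted p = 0.00924, and -2.31 without it, adjusted p = 0.0480). Of the 7 other kinase inhibitors, Cdkn3 (2.40 ± 0.52, adjusted p = 0.0190) and Cdkn2d (1.07 ± 0.26, adjusted p = 0.0247) were higher, with adjusted p of 0.100 and 0.0662 without that library. At day 1 and day 5, 0 of the 116 pathway genes on these lists were called between genotypes, and 1 and 9 had an unadjusted p under 0.05. Of all 14063 genes tested, 169 at day 1 and 1086 at day 5 had one.

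Averaged over the days, 0 of 10 members were called between genotypes, while 15 genes (0.107%) were. Of the members, 3 had an unadjusted p under 0.05 by limma and 2 by voom, which called 0 as well. Of all 14063 genes tested, 3438 by limma and 3447 by voom had one. Among the members Trp53inp1 was nearest to a call, at -0.50 ± 0.11 (SE, adjusted p = 0.0647). The members' median was -0.20 with all libraries. Without the line 1 fl/fl day 8 library it was -0.26, and without the line 1 del/del day 5 library -0.21. The change of the genotype effect between day 1 and day 5 called 0 members and 0% of genes, and no member had an unadjusted p under 0.05. Between day 5 and day 8 it called 0 members and 0.00711% of genes, although 6 members had an unadjusted p under 0.05 by limma and 6 by voom. So did 1925 of all 14063 genes by limma and 1633 by voom. The largest change of a member was that of Ccng1, at -1.19 ± 0.29 (SE, adjusted p = 0.230, and 0.06 on the deposited scale). Without the line 1 fl/fl day 8 library, which leaves the shallow library as the control, 7 members passed. 

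Likeness of pattern was measured as the root mean square difference between mean-centred relative log2 levels over the 12 libraries, among 11729 genes with at least 20 reads on average. The genes most like Trp53 were Mvd, an enzyme of the mevalonate pathway (0.116 log2 units), Fam117a (0.125), the mitochondrial carrier gene Slc25a13 (0.125) and Igf2bp1, which encodes an mRNA-binding protein (0.127). Those most like Cdkn1a were the small GTPase gene Rhoc (0.142), the lysosomal protease gene Ctsb (0.144), the actin crosslinker gene Actn1 (0.148) and Plk2 (0.153), which is also on the list of p53 targets. Among the members themselves, Phlda3 was nearest to Cdkn1a (0.445) and Trp53 nearly the farthest (1.40, against 1.45 for Fas). These distances are descriptions over libraries that share lines and days.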

How the data were processed

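RNA-seq of 12 libraries was deposited as 1 table of 25965 rows, whose values are log2 RPM per gene (RPM: reads scaled to a common library total), a unit read from the table's own name and from its values. The submitters' processing notes name bcl2fastq, TopHat2 2.0.12, edgeR and the build mm10. Their roles, the counting and its strand setting are not given in the sources used here. Powers of 2 of the deposited values were whole multiples of 1 step per library (100% within 0.02 reads, with 0 reads entered as 0.9), which gave reads and depth. The table held 0 columns of other samples.

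Each library was shifted by the median of its log ratios to the mean of all libraries. A gene was kept when 2 or more libraries had it above 0 on the deposited log2 scale (14063 genes). limma 3.58.1 (R 4.3.3) with a mean-variance trend was fitted to the 6 groups together, and p-values were adjusted by Benjamini-Hochberg over all 14063 genes for each contrast, with 0.05 as the threshold. Alternatives were the deposited scale, voom on recovered reads, a pseudocount of 2 reads, no filter, at least 10 reads in 2 libraries, cyclic loess, each library left out, only the groups compared, and the ES line as a block. A count model was not used, since the deposited unit is log2. The fit was tested on simulated data.

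Same-numbered libraries come from the same ES line, which pairs them. Their deviations from the group means correlated at 0.135, -0.154 and -0.111 at days 1, 5 and 8. The members and gene lists were chosen with earlier results of these data known. All members are given. Of each other list, up to 4 genes per direction with the smallest p among those that passed were eligible for naming, and Gls2 was chosen after its values were seen. Gene spans in mm10 and promoters in GRCm38.p6 came from the reference annotation, where 22661 of 25899 names (87.5%) matched.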

Additional observations from a re-analysis of the deposited data

How the results depend on the processing

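Of the 16 member values that passed, 4 turned on the deposited scale and 0 of 304 results under the other alternatives did. Of those that had not passed, 45 of 84 turned on the deposited scale and 72 of 1586 under the others. By the threshold, 68 results of single members lost their call with the same sign and 45 gained one. The 4 passed values that turned lost their call as well. The 4 that turned were, at day 8, Cdkn1a (0.012), Ccng1 (0.016) and Bbc3 (0.24), and Ccng1 between day 5 and day 1 in del/del cells (-0.17). That scale adds 1 constant to every gene of a contrast.

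Of 5 members called between genotypes at day 8, 0 were called on the deposited scale or with only day 8 libraries, and 0 to 7 with a library left out. Averaged over days the main number was 0, and 0 to 5 with a library left out. Between day 5 and day 1 in del/del cells (5) it was 3 on the deposited scale and 3 to 6 with a library left out, and in fl/fl cells (4) 2 on the deposited scale, 6 with only the groups compared, and 1 to 5. Between day 8 and day 5 in del/del cells (1) it was 0 on the deposited scale, 3 by voom, 2 with the larger pseudocount, 0 with only the groups compared, and 0 to 3. In fl/fl cells (1) it was 0 on the deposited scale, 2 by cyclic loess, 0 with only the groups compared, and 0 to 6. The later interaction (0) gave 0 to 7. With the ES line as a block, which follows the pairing by design, 3 members were called between day 8 and day 5 in del/del cells and 4 between genotypes at day 8, and no call between day 5 and day 1 changed.

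Over all genes, 2111 were called between genotypes at day 8, against 3295 on the deposited scale, 0 with only day 8 libraries and 55 to 4657 with a library left out. At day 8 the split of higher and lower calls was 1149 and 962, and 3227 and 68 on the deposited scale. At day 1 the count was 1, and 0 on the deposited scale or 0 to 1. At day 5 it was 1, and 0 on that scale, by voom, with the block or with only the groups compared, and 0 to 1563 with a library left out. Averaged over days it was 15, against 6 (deposited), 32 (voom), 32 (pseudocount), 39 (no filter), 9 (at least 10 reads), 1 (block) and 1 to 3053. Between day 5 and day 1 it was 5568 in del/del cells (3366 to 6729) and 5774 in fl/fl cells (2657 deposited, 3516 to 6830). Between day 8 and day 5 it was 1670 in del/del cells (554 with only the groups compared, 352 to 2872) and 929 in fl/fl cells (176 deposited, 48 with only the groups compared, 58 to 3254). The earlier interaction gave 0 (0 to 282) and the later 1, against 26 (deposited), 0 (voom), 5 (no filter), 3 (at least 10 reads), 0 (block), 2 (cyclic loess), 0 (only the groups compared) and 0 to 2175. The cause of these changes was not tested. Fewer libraries enter where some are left out, and the day 8 count between genotypes then moved both up and down. Depth limits Fas, with 1 to 97 reads, and every value of the fl/fl day 8 library of line 3.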
